A study of Mus musculus with 3 samples.

Results

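The genes described here encode leukocyte surface antigens named by CD or Ly numbers, killer lectin-like receptors, integrin chains and receptor-type protein tyrosine phosphatases. They were taken from the annotation of a mouse two-colour array by symbol, as single-symbol genes that begin with Cd, Ly or Klr and a number or letter, or with Itga, Itgb or Ptpr and a letter, leaving out Cd83, Cd4, Cd8a, Cd3d, Cd247 and Itgax. The annotation held 58 such genes on 80 probes, and 35 of them had a nonzero value on all 3 arrays, among 6077 genes so measured in all. The label fits most but not every gene: Cd2bp2, Itgb1bp1 and Itgb1bp2 carry such names but encode intracellular binding partners, and 4 of the genes belong to the Ly6 family of small proteins, some of which are not leukocyte antigens.

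Each of the 3 arrays set amplified cRNA of mouse spleen, labelled red with Cy5, against amplified cRNA of a commercial universal mouse reference RNA, labelled green with Cy3. Both total RNAs were bought. The reference pools the RNA of several mouse cell lines, and it carries leukocyte lines beside fibroblast, epithelial and other lines, so it is not a leukocyte-free control. The labels give no strain, age or sex, no dye swap and 1 catalogue item per RNA throughout. The p-values therefore capture array-to-array spread alone, possibly technical, leave out the reference's own spread, and would rest on 1 replicate if the arrays repeat the same extracts. Dye and RNA cannot be told apart.

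Each value is the authors' signed log ratio, with base and numerator not given in the sources used here. Positive is read here as likely the spleen side. The basis is the dye labels, if red stands over green, together with markers. Positive were 6 of 6 measured B cell genes (1.76 to 3.91). So were 3 of 3 measured genes (Satb1, Cd8a and Cd4, 2.24 to 4.69) of a list of 7 T cell genes. The 3 measured red cell genes (2.48 to 3.22) were positive, and the 3 measured fibroblast genes (-3.24 to -2.20) were negative. The titles name the reference first, which could mean the opposite order. Against these, the T cell gene Cd3d, which is not on that list, was negative at -0.85. Since the markers helped to set the direction, their signs are not results. The measured platelet genes (2 of 2, 2.14 and 3.85), macrophage genes (3 of 3, 1.35 to 4.24) and exocrine pancreas genes (6 of 6, 3.18 to 5.22) were positive too. The part of these other cell types in the ratios below was not tested. In a bulk RNA, fewer cells of a type and less RNA per cell cannot be told apart. Ratios correlated at 0.952 to 0.969 (Pearson's r) between arrays over 11086 probes. Signal over background is unknown, and the number of arrays limits the precision.

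Integrins are adhesion receptors made of 1 alpha and 1 beta chain, which bind matrix proteins or counter-receptors on other cells and pass signals through talin and kindlin at their tails. CD antigens mark lineages and states of blood cells, and in spleen they distinguish the lymphocytes of the white pulp from the phagocytes of the red pulp. Tetraspanins organise such receptors in the membrane, and receptor phosphatases remove phosphate from tyrosines that kinases near these receptors add.

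The genes split into both directions. Of the 35 genes, 14 were positive and 11 negative in limma's test of the mean ratio against 0 (Benjamini-Hochberg adjusted p under 0.05 over all 6077 genes), and 10 did not pass. Together 71.4% were called, against 70.3% of all genes tested, with 33.2% positive and 37.1% negative over all genes, so the share called is near the background. Their median ratio was 0.08 and their median absolute ratio 0.45, against -0.03 and 0.36 over all genes. Called ratios of 1 or more were found for 6 genes (Itga9, Cd3g, Itgb7, Cd7, Cd82 and Itgae), where 7.57% of all genes reached that size, and called ratios of -1 or less for 2 genes (Cd81 and Cd63), where 6.58% of all genes did. If the base is 2, a ratio of 1 is a 2-fold difference. Read as natural logs, 12 of the genes were called at 2-fold or more, instead of 8. An exact test on the signs of 3 arrays cannot give a two-sided p below 0.25, so single genes are judged by limma's fit over all genes.

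**Figure D1:**
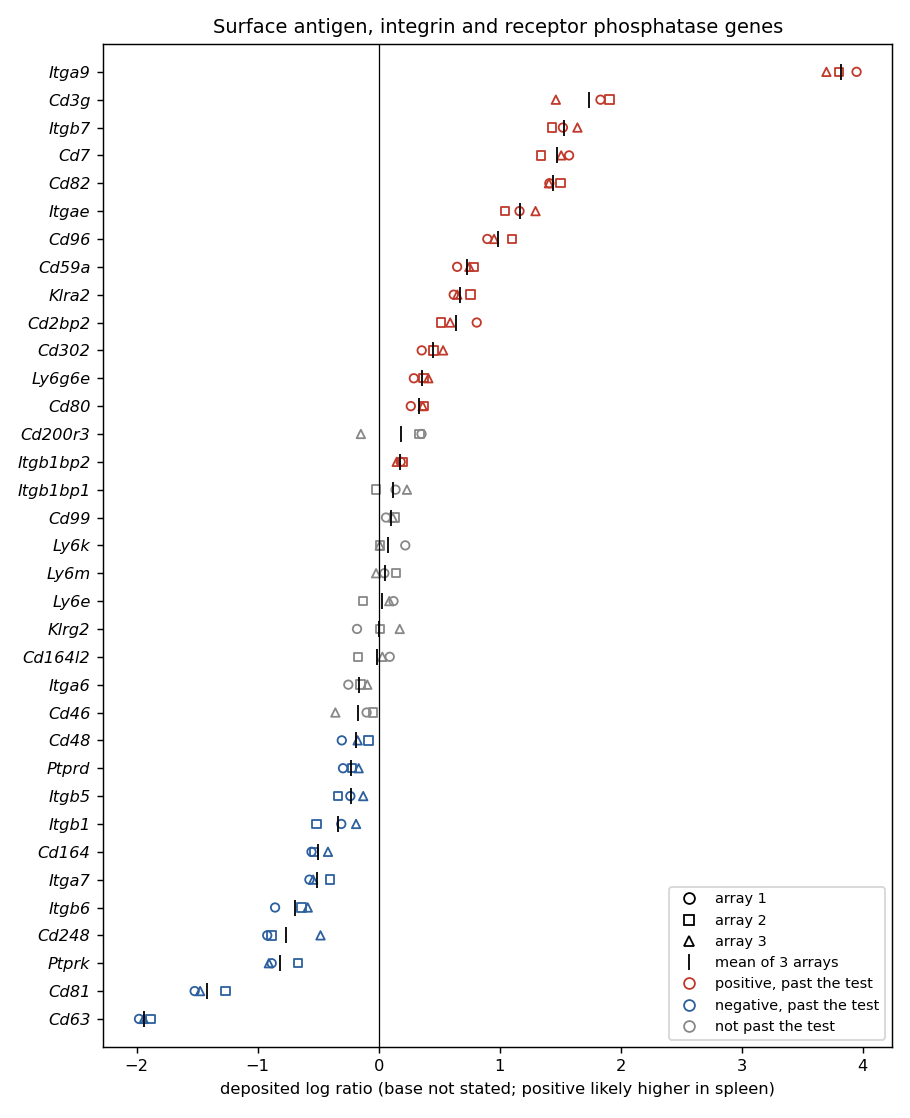
Deposited log ratio (horizontal axis, base not stated, positive likely higher in spleen) of the 35 genes on each of 3 arrays, ordered by mean, with the mean as a black bar and colour for limma's call. Itga9 stands at 3.70 to 3.95 apart from Cd3g at 1.46 to 1.91, and Cd63 and Cd81 lie lowest, at -1.98 to -1.89 and -1.52 to -1.26.

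To show the regulatory sequence beside the ratios, the promoters of the 3 highest and the 2 lowest called genes with a single start in the RefSeq promoter table (build GRCm38.p6) are printed, each as a 300-base window that lies mostly upstream of the start and runs a little past it, 5′ to 3′ along the gene. Capitals mark the GC box GGGCGG, the element bound by Sp family factors, and the RUNX core TGTGGT, on either strand, and no matches overlapped. The motifs were chosen for this description with the ratios known. The windows are chr9:118711442-118711741 (plus strand) for Itga9, chr9:44980382-44980681 (minus strand) for Cd3g, chr15:102231886-102232185 (minus strand) for Itgb7, chr7:143052500-143052799 (plus strand) for Cd81 and chr10:128909095-128909394 (plus strand) for Cd63.
Itga9: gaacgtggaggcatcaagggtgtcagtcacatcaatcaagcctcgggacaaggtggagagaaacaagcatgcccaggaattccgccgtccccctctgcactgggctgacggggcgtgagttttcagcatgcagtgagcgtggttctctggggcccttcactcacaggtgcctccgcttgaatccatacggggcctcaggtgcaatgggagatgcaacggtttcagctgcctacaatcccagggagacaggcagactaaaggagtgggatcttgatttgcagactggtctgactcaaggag
Cd3g: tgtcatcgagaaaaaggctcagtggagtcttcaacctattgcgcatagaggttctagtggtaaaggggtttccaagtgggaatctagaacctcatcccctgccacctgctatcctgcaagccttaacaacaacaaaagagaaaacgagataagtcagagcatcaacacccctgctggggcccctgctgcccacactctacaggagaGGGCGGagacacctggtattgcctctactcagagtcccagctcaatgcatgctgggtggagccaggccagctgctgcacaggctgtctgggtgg
Itgb7: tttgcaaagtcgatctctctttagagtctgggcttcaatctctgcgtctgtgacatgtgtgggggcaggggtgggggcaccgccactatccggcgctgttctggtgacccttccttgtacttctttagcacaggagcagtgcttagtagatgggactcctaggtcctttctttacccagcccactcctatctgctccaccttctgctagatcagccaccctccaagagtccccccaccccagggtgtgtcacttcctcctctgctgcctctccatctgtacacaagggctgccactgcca
Cd81: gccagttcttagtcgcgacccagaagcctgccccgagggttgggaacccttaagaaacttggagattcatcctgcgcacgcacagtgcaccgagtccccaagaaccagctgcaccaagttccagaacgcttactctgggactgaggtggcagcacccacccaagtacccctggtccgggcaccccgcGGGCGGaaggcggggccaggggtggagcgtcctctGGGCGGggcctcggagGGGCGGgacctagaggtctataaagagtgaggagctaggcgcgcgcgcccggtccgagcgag
Cd63: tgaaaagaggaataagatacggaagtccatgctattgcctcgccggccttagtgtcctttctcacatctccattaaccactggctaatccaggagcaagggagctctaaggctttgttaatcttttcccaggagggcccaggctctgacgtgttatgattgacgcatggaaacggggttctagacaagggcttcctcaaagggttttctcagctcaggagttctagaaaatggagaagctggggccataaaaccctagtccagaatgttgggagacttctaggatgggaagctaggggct

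The Cd81 window held 3 GC boxes and 23 CpG pairs, the Cd3g window 1 GC box and 4 CpG pairs. The Itga9, Itgb7 and Cd63 windows held no GC box, with 10, 5 and 6 CpG pairs, and none of the 5 windows held the RUNX core. Among all 32851 windows of this length in the table, 35.7% held a GC box and 16.8% the RUNX core. A search for TATAAA, which is not marked in capitals, found it in the Cd81 window alone of the 5, and in 13.6% of all windows. A match is a description of letters, not a site.

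Integrin chains held both the highest ratio of the set and negative ones. Of 8 measured chains in the set, 3 were positive, 4 negative and 1 did not pass, against 33.2% positive and 37.1% negative over all genes. Positive ratios belonged to Itga9, Itgae and Itgb7, and negative ones to Itga7, Itgb1, Itgb5 and Itgb6, while Itga6 did not pass. All 3 positive chains of the set kept their call under every alternative setting tried. The alpha chain Itgax, which the rule leaves out, was positive too, with 1.77, 1.70 and 1.83 (mean 1.77).

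Itga9, the alpha chain that pairs with the beta 1 chain and binds tenascin, osteopontin and VCAM-1, had ratios of 3.95, 3.80 and 3.70 on arrays 1 to 3. Its mean was 3.82 ± 0.13 (SD, n = 3; limma adjusted p = 5.14e-08), which ranks 34 among the 6077 genes counted from the highest deposited ratio, whichever RNA that side stands for. It would be 14.1-fold in base 2 or 45.4-fold in natural logs. The value rests on 1 probe, whose 20 neighbours by probe number had a median ratio of 0.04. Its partner Itgb1, the common beta chain of many matrix and cell adhesion receptors, had -0.31, -0.52 and -0.19 on the 3 arrays, a mean of -0.34 ± 0.17 (SD, n = 3; limma adjusted p = 0.00718). On every array the Itga9 ratio lay far above that of Itgb1, and a test of their difference was not run. For Itgb1 the neighbouring probes had a median of -0.25, and the call ended when a running median along probe numbers was removed (-0.09, adjusted p = 0.180 by limma), when values of 0 were kept (-0.17, adjusted p = 0.0841 by limma) and without moderation of the variance (adjusted p = 0.112 with limma's unmoderated fit). A further Itgb1 probe was listed at 0 on all arrays.

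Itgae and Itgb7 encode the chains of the integrin alpha E beta 7 (CD103), which holds lymphocytes and dendritic cells at epithelia by binding E-cadherin. Itgb7 had ratios of 1.52, 1.43 and 1.64, a mean of 1.53 ± 0.11 (SD, n = 3; limma adjusted p = 1.83e-06). Itgae had 1.16, 1.04 and 1.30, a mean of 1.17 ± 0.13 (SD, n = 3; limma adjusted p = 8.66e-06). On each array the Itgb7 ratio was above the Itgae ratio. For both chains array 3 was highest and array 2 lowest. The beta 7 chain also pairs with the alpha 4 chain in lymphocytes that enter gut tissue, a chain not analysed here.

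The remaining chains of the set, which pair into receptors of matrix-bound cells, lay below 0. Itgb6, the epithelial partner of the alpha V chain in the activation of TGF-beta, had -0.86, -0.64 and -0.59 and a mean of -0.69 ± 0.14 (SD, n = 3; limma adjusted p = 0.000148) over 2 probes with means of -0.76 and -0.63. Itga7, a laminin receptor chain of muscle, had -0.57, -0.40 and -0.54 and a mean of -0.51 ± 0.090 (SD, n = 3; limma adjusted p = 0.000409). A second Itga7 probe made from the same clone was at 0 on all arrays, and the mean was -0.25 with 0 kept and -0.28 with the running median removed, both still called. Itgb5, a vitronectin receptor chain, had -0.23, -0.34 and -0.13 and a mean of -0.23 ± 0.10 (SD, n = 3; limma adjusted p = 0.0189). Itgb5 kept its call under 9 of 15 alternatives, and lost it without moderation of the variance (adjusted p = 0.0990 with limma's unmoderated fit), with 0 kept (adjusted p = 0.0712 by limma), without array 1 (adjusted p = 0.0817 by limma) and without array 2 (adjusted p = 0.0648 by limma). Itga6, a laminin receptor chain of epithelia and of some blood progenitors, had -0.25, -0.15 and -0.09, and its mean of -0.16 did not pass (limma adjusted p = 0.0575). With the running median removed its mean was -0.23 (limma adjusted p = 0.0135). The 2 integrin-named partners lay close to 0: Itgb1bp2, a muscle chaperone known as melusin, had 0.18, 0.20 and 0.15 (mean 0.18, limma adjusted p = 0.0357), and Itgb1bp1, a cytoplasmic binder of the beta 1 tail, had 0.14, -0.02 and 0.23. The call of Itgb1bp2 ended when any 1 array was left out (limma adjusted p = 0.0751 to 0.148).

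**Figure D2:**
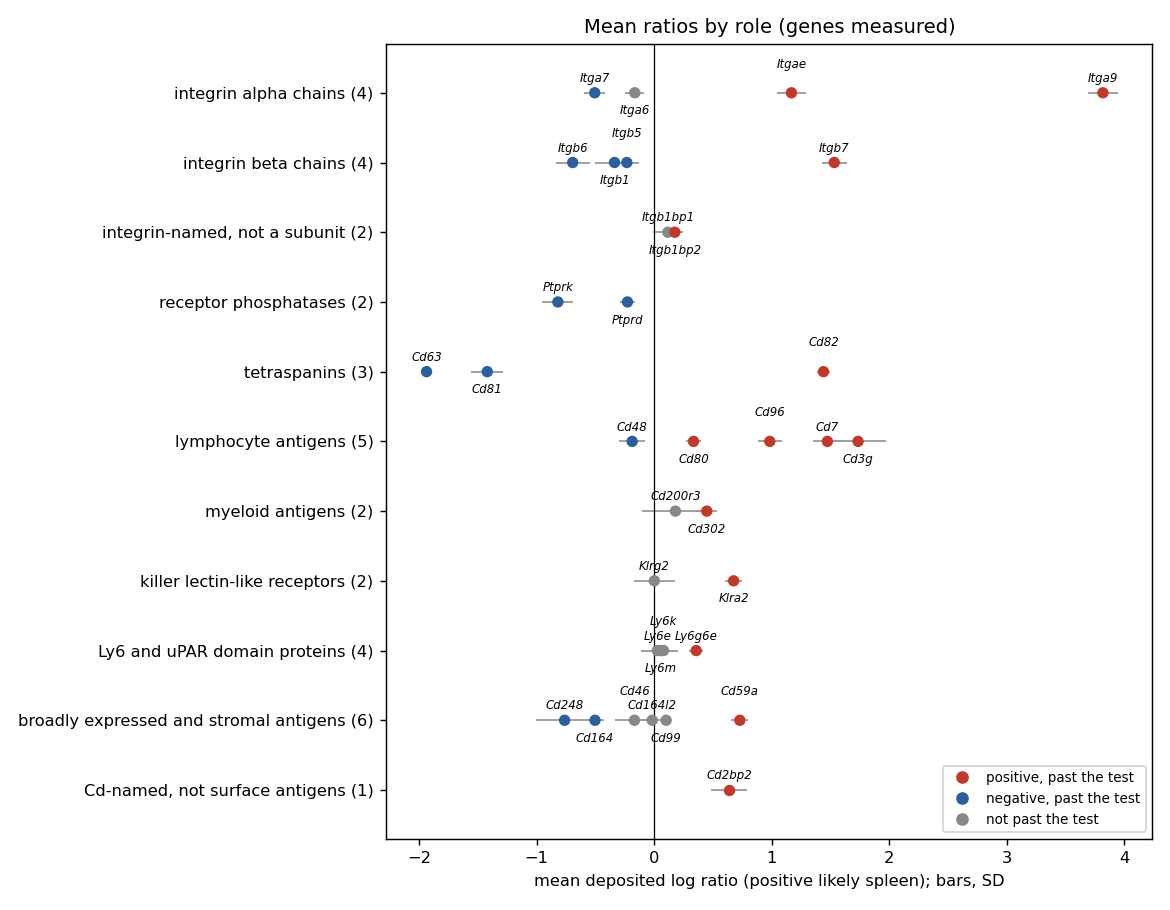
Mean deposited log ratio (horizontal axis, positive likely higher in spleen) of the 35 genes by role, with bars for the SD of 3 arrays and colour for limma's call. Integrin chains and tetraspanins span both sides of 0, both receptor phosphatases lie below it, and 4 of 5 lymphocyte antigens lie above it.

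The tetraspanins took opposite signs, with 1 of 3 positive and 2 negative, against 33.2% positive and 37.1% negative over all genes. Cd82, a tetraspanin that was described as a suppressor of metastasis, had ratios of 1.41, 1.503 and 1.41, a mean of 1.44 ± 0.054 (SD, n = 3; limma adjusted p = 1.57e-06). Cd63, a tetraspanin of lysosomes and secretory granules, had -1.98, -1.89 and -1.94, a mean of -1.94 ± 0.047 (SD, n = 3; limma adjusted p = 4.18e-07), the lowest of the 35 genes. Cd81, a tetraspanin that many cell types carry, had -1.52, -1.26 and -1.47, a mean of -1.42 ± 0.14 (SD, n = 3; limma adjusted p = 3.71e-06). Each of these genes was on 1 side of 0 on all arrays, and Cd82 did not overlap the other two. All 3 kept their calls under every alternative. The printed promoters of the negative pair differ: the Cd81 window has 65.7% G and C, the Cd63 window 49.3%.

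Cd81 and Cd63 are also the genes for which several probes can be set side by side. All 4 probes of Cd81 derive from 1 clone, and 3 of them had means of -1.57, -1.55 and -1.64, while the other had -0.92 ± 0.093 (SD, n = 3). On each array that probe was above the other three. The SD of each of these probes over arrays, 0.093 to 0.18, is smaller than the gap of that probe to the rest, so the size of the Cd81 ratio depends on the probe and its sign does not. Taking the least variable probe of each gene alone moves Cd81 to -0.92. The probes of Cd63 came from different clones and had means of -2.04 and -1.83, and another Cd63 probe, measured on arrays 1 and 3, had -1.99 and -1.98.

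**Figure D3:**
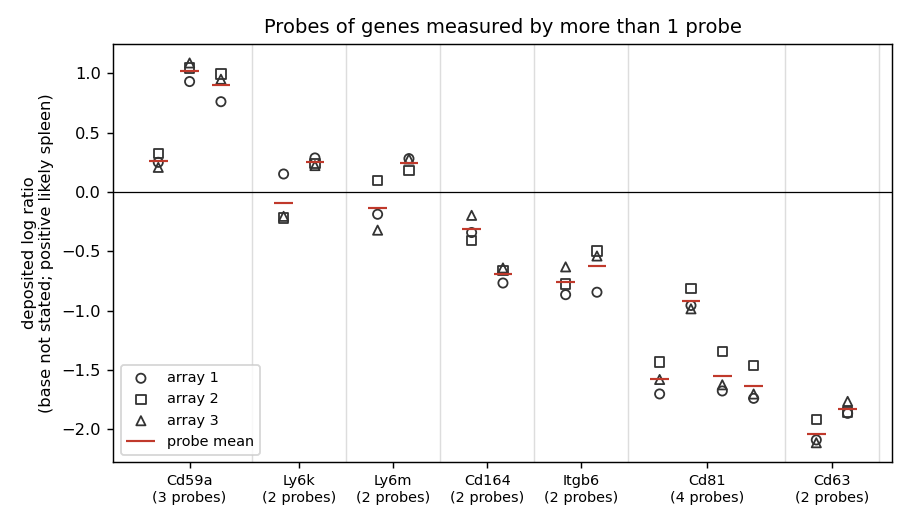
Deposited log ratio (vertical axis, positive likely higher in spleen) of each probe for the 7 genes measured by more than 1 probe on all 3 arrays, with array by marker and the probe mean as a red line. Probes of Cd63, Cd81, Cd164 and Itgb6 lie on 1 side of 0 on every array, while 1 probe each of Ly6k and Ly6m crosses it.

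Most of the measured lymphocyte and costimulatory antigens were positive. Of 9 such genes of the rule 5 were measured, not counting those that the rule leaves out. Cd3g, Cd7, Cd96 and Cd80 were positive and Cd48 was negative, with a median of 0.98. Over all genes, 33.2% were positive and 37.1% negative. Cd3g, the gamma chain of the T cell receptor's CD3 complex, had 1.83, 1.91 and 1.46, a mean of 1.73 ± 0.24 (SD, n = 3; limma adjusted p = 4.70e-06). Array 3 lay below the others for this gene. Among related genes outside the set, Cd247, the zeta chain of the same complex, had a mean of 2.91, whereas Cd3d, its delta chain, had -0.78, -0.86 and -0.90. The chains of 1 complex thus carried opposite signs, each on a single probe.

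Cd7, an immunoglobulin superfamily protein of T and NK cells, had 1.57, 1.34 and 1.51, a mean of 1.47 ± 0.12 (SD, n = 3; limma adjusted p = 2.63e-06). Cd96, a receptor of T and NK cells for nectin family ligands, had 0.90, 1.10 and 0.95, a mean of 0.98 ± 0.10 (SD, n = 3; limma adjusted p = 1.59e-05). Cd80 and Cd48 had smaller ratios, and neither kept its call under every alternative. Cd80 kept its call under 13 of 15 alternatives and Cd48 under 6. Cd80, the B7-1 ligand of CD28 and CTLA-4 on antigen-presenting cells, had 0.27, 0.37 and 0.36 (mean 0.33, limma adjusted p = 0.00255), beside neighbouring probes with a median of 0.18, and 0.09 with the running median removed (limma adjusted p = 0.124). Cd48, a SLAM family protein that most leukocytes carry, had -0.30, -0.08 and -0.17 (mean -0.19, limma adjusted p = 0.0460). The Cd48 call ended under 9 of 15 alternatives, among them centring of the arrays (limma adjusted p = 0.0787) and leaving out array 1 (limma adjusted p = 0.255). It also ended without array 3 (limma adjusted p = 0.139), where p followed the size of the mean alone.

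Of the killer lectin-like receptors, Klra2, an inhibitory receptor of the Ly49 family, had 0.62, 0.76 and 0.65, a mean of 0.68 ± 0.072 (SD, n = 3; limma adjusted p = 7.72e-05). Klra2 shares sequence with other Ly49 genes, so a single member is uncertain. Klrg2 had -0.18, 0.01 and 0.17 and did not pass. Among myeloid antigens Cd302, a C-type lectin of macrophages and dendritic cells, was positive with 0.36, 0.45 and 0.53 (mean 0.45, limma adjusted p = 0.000754), and 0.27 with the running median removed. Cd200r3, an activating relative of the CD200 receptor on mast cells and basophils, had 0.35 and 0.34 on arrays 1 and 2 and -0.15 on array 3, and did not pass. Without array 3 its mean was 0.34 (limma adjusted p = 0.00623, in a fit where p followed the size of the mean alone), so 1 array decides that value.

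Ly6 family genes lay near 0. Of 4 measured, Ly6g6e, which lies in the MHC class III region, passed, with 0.29, 0.37 and 0.41 (mean 0.36, limma adjusted p = 0.00185). Among all genes tested, 70.3% passed. The 20 neighbours of its probe had a median of 0.35, and with the running median removed the ratio was 0.01 (limma adjusted p = 0.914). Ly6e, a GPI-linked interferon-induced protein, had 0.12, -0.13 and 0.09. Ly6k and Ly6m had means of 0.08 and 0.06, each from a probe near 0.25 on all arrays (0.22 to 0.29 for Ly6k, 0.18 to 0.28 for Ly6m) and a probe that changed sign between arrays.

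Both measured receptor phosphatases were negative, where 37.1% of all genes were. Ptprk, which binds itself between neighbouring cells and is best known from epithelia, had -0.88, -0.67 and -0.91, a mean of -0.82 ± 0.13 (SD, n = 3; limma adjusted p = 5.43e-05). Ptprd, known for its role in synapse formation, had -0.29, -0.22 and -0.17, a mean of -0.23 ± 0.065 (SD, n = 3; limma adjusted p = 0.0156), and kept its call under 11 of 15 alternatives. The call ended without array 1 (limma adjusted p = 0.103) and without moderation of the variance (adjusted p = 0.0546 with limma's unmoderated fit). The other receptor phosphatases of the annotation were Ptprg, at 0 on all arrays, and Ptprv, with -0.51 and -0.32 on arrays 1 and 2 and 0 on array 3. The leukocyte common antigen CD45 was not analysed here.

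The genes grouped by name as broadly expressed and stromal antigens held 1 positive gene, 2 negative ones and 3 that did not pass. Of all genes, 33.2% were positive and 37.1% negative. The grouping does not rest on measured expression. Cd59a, the inhibitor of the complement membrane attack complex, had 0.65, 0.79 and 0.75, a mean of 0.73 ± 0.072 (SD, n = 3; limma adjusted p = 5.25e-05) over 3 probes. Its probes, each from a different clone, had means of 0.26, 1.02 and 0.90, so the size moves to 0.26 with the least variable probe alone. Cd248, endosialin, a protein of pericytes and fibroblasts, had -0.92, -0.88 and -0.48, a mean of -0.76 ± 0.24 (SD, n = 3; limma adjusted p = 0.000335). Array 3 lay above the other two for Cd248, and its call ended without moderation of the variance (adjusted p = 0.0630 with limma's unmoderated fit). Cd164, a sialomucin of endosomes and of blood progenitors, had -0.55, -0.54 and -0.42, a mean of -0.50 ± 0.074 (SD, n = 3; limma adjusted p = 0.000360), from probes at -0.32 and -0.69. Cd46, Cd99 and Cd164l2 had means of -0.17, 0.10 and -0.02 and did not pass. Cd2bp2, an intracellular protein of the splicing machinery, had 0.81, 0.51 and 0.59, a mean of 0.64 ± 0.15 (SD, n = 3; limma adjusted p = 0.000256).

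Of the 58 genes of the rule, 23 (with Cd74, Cd36, Cd68, Cd9, Cd44 and Cd53 among them) had no probe with a value on all arrays, and 60.3% were measured, against 76.1% of the 7984 single-symbol genes of the array. An exact 0 was read as no measurement and not as lack of expression. For 16 genes every probe was at 0 on all arrays: Cd1d1, Cd209b, Cd2ap, Cd300lg, Cd44, Cd53, Cd55, Cd55b, Cd69, Cd99l2, Itga8, Itgav, Itgb2l, Itgb4, Ly6h and Ptprg. The other 7 had a value on 1 or 2 arrays and were not tested. Cd74, the invariant chain of MHC class II, had 2.13 and 2.19 on arrays 1 and 3 from 1 probe and 3.43 on array 3 from another. Cd36, a scavenger receptor for lipids, had 2.38 on array 3 alone. Cd24a had -0.13 and 0.04 on arrays 1 and 2, and Ly96, the MD-2 partner of TLR4, had 0.43 and 0.26 on arrays 1 and 3. Cd68, a lysosomal protein of macrophages, and Cd9, a tetraspanin, had -0.07 and -0.53 on array 3 alone.

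Promoter composition differed along the ratios of the genes, as a description. RefSeq windows were found for 23 of the 35 genes, 21 of them with 1 start. In these, the ratio of observed to expected CpG pairs had a median of 0.216 (0.0725 to 0.833) in the 9 positive genes, 0.713 (0.334 to 0.982) in the 7 negative ones and 0.455 in the 5 that did not pass. Of the positive genes 7 of 9 lay below 0.384, the median of all windows, with Itga9 (0.420) and Cd2bp2 (0.833) above it, and of the negative genes 1 of 7 did, Cd63 (0.334). A GC box was found in 2 of 9 positive and 5 of 7 negative genes, and the RUNX core in 2 of 9 (Cd96 and Cd59a) and 1 of 7 (Cd48). Over all measured genes with 1 start a GC box was found in 55.9% of positive and 58.6% of negative genes, and the RUNX core in 14.3% and 12.9%, so these motifs hardly differed by direction there. TATAAA was found in 2 of 9 positive and 1 of 7 negative genes, against 9.34% and 9.35% over all measured genes with 1 start. Over the same genes the median CpG ratios were 0.710 for 1296 positive and 0.753 for 1486 negative genes, and 0.582 and 0.714 for the 273 and 247 called genes with ratios of at least 1 in size. The points share 1 set of arrays, and no test of this difference was made.

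**Figure D4:**
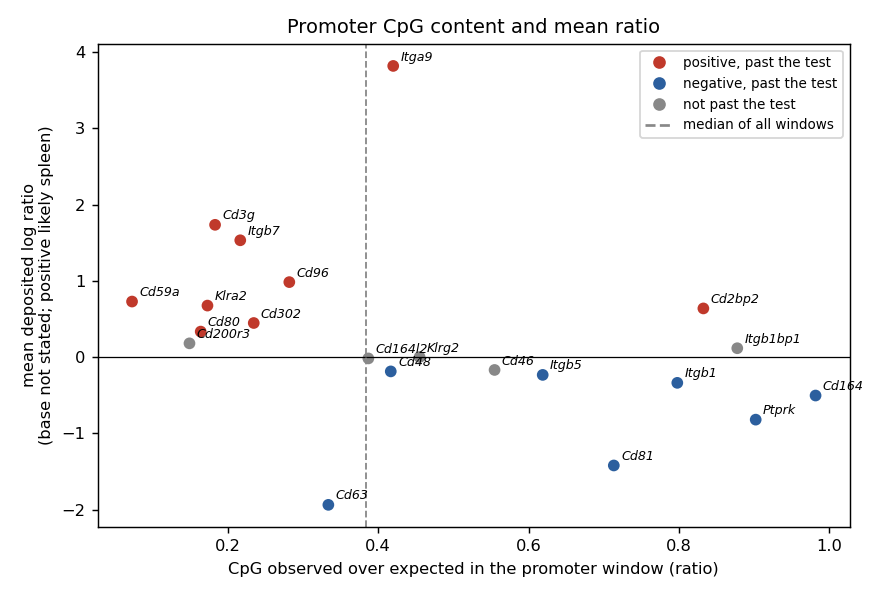
Mean deposited log ratio (vertical axis, positive likely higher in spleen) against the observed over expected CpG ratio of the RefSeq promoter window (horizontal axis) for the 21 genes with 1 start, coloured by limma's call, with a dashed line at the median of all windows (0.384). Most positive genes lie left of that line, with Itga9 and Cd2bp2 as exceptions, and most negative genes lie right of it, with Cd63 as the exception.

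Genes that work with these receptors were taken from lists written with earlier results of these data known. Over all genes, 33.2% were positive and 37.1% negative. Of 37 listed genes of receptor-proximal signalling 10 were measured, of which 8 had positive calls, 1 a negative call and 1 no call. Their median ratio was 1.73. They included the kinase Syk (3.12), the adaptor Hcst, known as DAP10 (2.55), the phosphatase Ptpn22 (2.05) and the adaptor Lcp2, known as SLP-76 (2.02). The negative gene was the phosphatase Ptpn11 (-0.48), named after its value was seen. Of 57 other leukocyte receptors listed 9 were measured, of which 7 had positive calls and 2 had none, at a median ratio of 2.91. The C-type lectins Clec4a2 (4.14) and Clec1b of platelets (3.85), the complement receptor Cr2 (3.91) and the B cell protein Ms4a1 (3.53) were highest. Cr2 and Ms4a1 here, and Blnk of the signalling list, are also B cell genes that helped to set the direction. The signs of Cr2, Ms4a1 and Blnk are therefore not results.

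Integrin ligands and the proteins at integrin tails went both ways. Of 29 listed ligands 7 were measured, with 4 positive and 2 negative. Vtn, vitronectin, was at 1.98 and the laminin chain Lama2 at 1.24, against the laminin chains Lamb1 at -3.24 and Lamc1 at -1.48. Lamb1 is also a fibroblast gene that helped to set the direction, so its sign is not a result. Of 30 listed linkers and adaptors 10 were measured, with 4 positive and 5 negative. The kinase Src was at 3.13 and the adaptor Skap1 of T cells at 1.42, against the scaffold Bcar1 at -1.32 and the talin Tln2 at -1.15. The medians of these lists were 0.33 and -0.19, beside -0.03 over all genes, of which 33.2% were positive and 37.1% negative.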

How the data were processed

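Spleen and reference RNA were compared on 3 two-colour arrays that form 1 group. Per the deposited table, the authors gave each of 16273 probes 1 signed log ratio on each array. How they made it, its log base and its numerator are not stated in the labels or the file. The design allowed for log2, and ratios were tested as deposited. Exact zeros (24.2%, 26.8% and 24.9% of probes on arrays 1 to 3) were read as no measurement. Array medians were -0.028, -0.029 and -0.027; whether the authors centred them is unknown.

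Symbols came from the supplied platform annotation (12336 probes with 1 symbol), and all 58 genes of the rule had the same symbol in RefSeq (GRCm38.p6, names and promoter sequences). Probes with a value on 3 arrays were averaged per gene (8591 probes, 6077 genes) and tested with limma 3.58.1 in R 4.3.3 (intercept fit, eBayes, two-sided, Benjamini-Hochberg adjusted p under 0.05 over all genes). The fit was tested on simulated data. Values on every array are given for the 12 highest and 10 lowest called members, other members in brief, and up to 4 genes of each list of other genes by size. Members, roles, lists and motifs were chosen with earlier results of these data known. Alternatives were centring, scaling, quantile normalization, robust and no moderation, a 1.5-fold test, adjusted p under 0.01, probes on at least 2 arrays, 0 kept as a value, other ways to combine probes, removal of a running median over 10 probe numbers on either side, and leaving out each array. Plots used matplotlib 3.10.9 (Python 3.11.15).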

Additional observations from a re-analysis of the deposited data

How the results depend on the processing

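Of the 25 called genes, 17 kept their call under all 14 alternatives that test against 0, and 0 of the 25 changed sign. Of the 17 genes, 10 also kept it against a 1.5-fold change in base 2. The same count over all called genes of the array was not made. Without an array, 13 to 14 of the genes were positive and 8 to 10 negative, and over all genes 1715 to 1945 were positive and 1945 to 2206 negative. Without moderation of the variance 6 of the genes were negative, as were 1395 genes in all, and the integrin ligand list had 2 positive genes and the signalling list 0 negative ones. Against a 1.5-fold change 7 of the genes were positive and 3 negative, over all genes 626 and 582, with 2 positive ligands, 3 negative linkers and 0 negative signalling genes. With 0 kept, 2 ligands were positive. Among other leukocyte receptors 1 gene was negative with probes on at least 2 arrays, the median of probes, the least variable probe or the running median removed, against 0 in limma's test as reported. Of the 10 genes that did not pass, 4 did under some alternative: Itga6, Ly6k, Ly6m and Cd200r3. The causes were not tested. No paired analysis was possible because the arrays form 1 group. Signal over background is unknown, so what it limits cannot be given.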
